A study of Rattus norvegicus with 2 samples.

Results

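The genes Ttr, Folr1, Otx2, Kl, Clic6, Cdkn1c and Aqp1, all known for high expression in choroid plexus epithelium, were chosen by name. They are 7 of 26248 named targets of the array, on 8 of 30367 probes and 17 of the 42877 spots that were not controls. Ttr and Cdkn1c were higher in a pool of hypothalamus RNA from female Wistar Kyoto rats than in one from males, by 1.98-fold and 1.51-fold. Each pool was read on 1 array. Ttr rests on 1 spot in a noisier part of the slide, and Cdkn1c stayed past 1.5-fold in 5 of 14 alternative settings. The other 5, Aqp1, Kl, Otx2, Folr1 and Clic6, each differed by at most 1.15-fold between the pools.

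The series compared males with females in brain regions that control the circulation, here the whole hypothalamus of Wistar Kyoto (WKY) rats 9 weeks of age. RNA of 5 males was combined into a male pool and RNA of 5 females into a female pool, 100 ng from each rat. From each pool 150 ng was labelled with the dye Cy3 and hybridised to 1 Agilent 1-colour array. With 1 array per sex there was no spread between samples, so no test was possible, no p-value is given, and every difference lacks a replicate check. The labels name no treatment, and food and water were freely available until the animals were killed by ether and decapitation. A pool gives the mean of its rats and hides which rats carried a difference.

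The choroid plexus is the epithelium that hangs into the brain ventricles and secretes cerebrospinal fluid. Its cells carry ions, water, folate and thyroid hormone between blood and fluid, and they owe their identity to a small set of transcription factors. The hypothalamus forms the floor and lower walls of the third ventricle, and choroid plexus lies in the roof of that ventricle. In tissue dissected whole, a smaller amount of a cell type and less RNA per cell cannot be told apart.

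The probes that measured these genes were oligonucleotides of 60 bases, each drawn by the maker from the mRNA of its gene. The first 30 bases of each probe, 5′ to 3′ as the deposited files give them, show what each value below was read from. Cdkn1c has 2 lines because its 2 probes read separate stretches of the mRNA.
Ttr: gtgttagcaactcgggaagatgccgtgaaa
Folr1: tagtgctgttctgcgtcgtcagctgagttc
Aqp1: ccactggcatagtacagctgcatactcttc
Clic6: cagaggttttgagtttccttctgaaatgac
Kl: gaagttacagtcactcagttggcgtcttaa
Otx2: aggcgtgatctgatgttttagccaatcttt
Cdkn1c, probe A_64_P165085: gtgtcctccacattattagattgctcttaa
Cdkn1c, probe A_44_P374618: agaactgcgcaggagaacaaggcgtcgaac

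Per the file headers, the genome build was rn4. The Ttr probe lies at chr18:12413621-12413680, that of Folr1 at chr1:159315267-159315326 and that of Aqp1 at chr4:84110125-84110184. The Clic6 probe lies at chr11:32558944-32559003, that of Kl at chr12:3732717-3732776 and that of Otx2 at chr15:24623454-24623513. Those of Cdkn1c lie at chr1:203835291-203835350 and chr1:203836064-203836123, with starts 773 bases apart. The files list the coordinates of the Folr1, Kl, Otx2 and Cdkn1c probes in descending order and those of the others in ascending order. All are annotated to mRNA accessions of their genes. Whether a probe falls in coding sequence or a UTR was not worked out here.

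Per the file headers, both arrays lay on the same slide. The 75th percentile of the intensity over spots was 3769 for males and 2943 for females, 84.9% and 84.2% of spots were well above background, and 0 were saturated. The level of a spot is the log2 of its intensity minus the log2 of that 75th percentile, and every difference is female minus male on this log2 scale. All 17 spots of the 7 genes were well above background on both arrays and 0 carried an outlier flag. The technical SD given with a difference comes from the spread of repeated spots of probes at a like level. For a gene read on several spots it is reduced to the error of their mean. It leaves out labelling, hybridisation, pooling and the rats. Levels of different probes were not ranked, since probes differ in how strongly they bind.

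**Figure D1:**
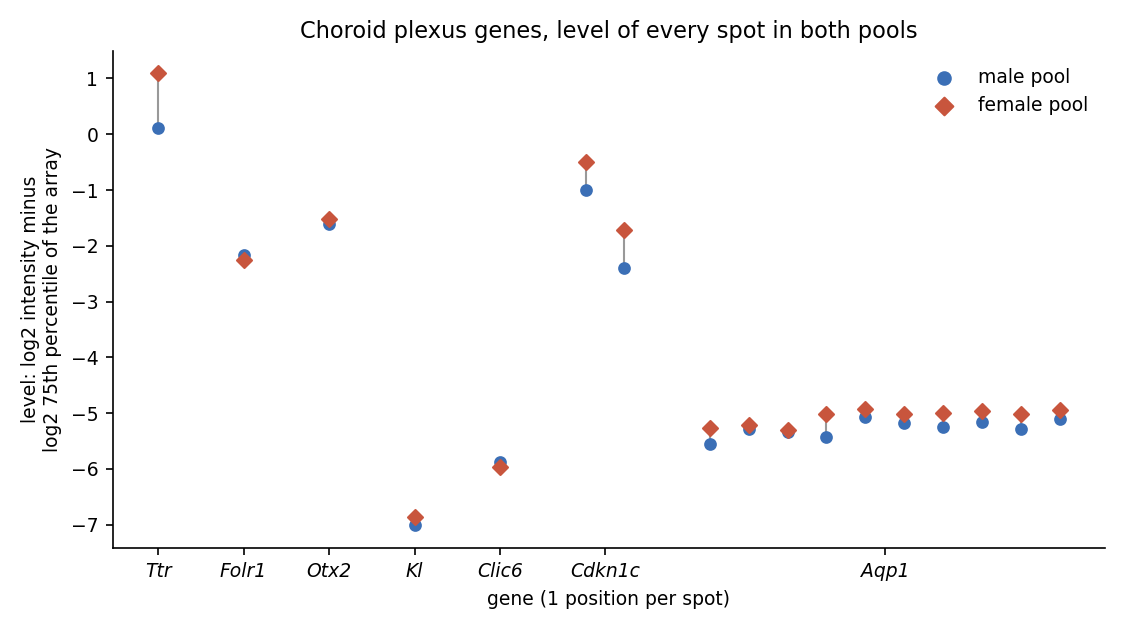
Level (log2 intensity minus the log2 75th percentile of the array) of each of the 17 spots, with male pool circles joined to female pool diamonds and 10 positions for Aqp1. The gap is widest at the spot of Ttr, from 0.11 to 1.09, and both spots of Cdkn1c also have the female pool above the male pool.

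Ttr encodes transthyretin, the carrier of thyroid hormone and of the retinol-binding protein in cerebrospinal fluid and blood, and is the best known product of choroid plexus epithelium. Its 1 spot gave an intensity of 4061 for males and 6272 for females, a level of 0.11 against 1.09. The female pool was therefore the higher one before scaling as well as after it. The difference was 0.98 log2 with a technical SD of 0.095. Of the 1671 genes with a mean level within 0.5 log2 of that of Ttr, 0.239% were at least as far apart, and the central 95% of them lay between -0.23 and 0.29 log2. Across the 13 alternative settings that gave a value, the difference of Ttr ran from 0.92 to 1.02 log2.

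The Ttr spot lay in slide row 165, inside the first of 3 bands of rows in which repeated spots of 1 probe often disagreed. Inside the bands 4.80% of repeated spots departed from their probe median by over 4 robust SDs, and outside them 0.456% did. Within 10 rows of the Ttr spot 2.11% did. Of 602 single spots of like level inside the bands, 0.332% were at least as far apart as Ttr. Within 3 rows and columns of the Ttr spot, 8 of 48 spots had a female signal past 1.5-fold above the male one, and 0 had the opposite. That was 16.7% of these near spots, while 6.37% of all spots were past 1.5-fold in either direction. These 8 spots were dim, with male intensities of at most 27.3. The 16 neighbours within 4-fold of the Ttr male intensity differed by -0.31 to 0.36 log2, with a median of -0.014. Ttr has no spot outside the bands, so its difference could not be measured in a quieter part of the slide. These neighbour counts were chosen after the data were seen.

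Cdkn1c encodes p57, an inhibitor of cyclin-dependent kinases that holds cells out of the cycle and is imprinted, with expression mainly from the maternal allele. Its probe in row 256, outside the bands, gave an intensity of 1879 for males and 2092 for females. Those are levels of -1.004 and -0.493, a difference of 0.51 log2 (1.43-fold). Its probe in row 433, inside the second band, gave intensities of 717 and 891, or levels of -2.39 and -1.72. That difference was 0.67 log2 (1.59-fold). Both probes put the female pool higher, and they differed from each other by 0.16 log2.

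The mean over both Cdkn1c probes was 0.59 log2 with a technical SD of 0.054, or 1.51-fold. Of 2256 genes of like level 0.754% were at least as far apart. This value sits just past the 1.5-fold line and the call is not firm. Cdkn1c stayed past it in 5 of 14 alternative settings, and the probe outside the bands alone gave 1.43-fold, below the line. Its direction was the same in all 14 settings, from 0.20 to 0.60 log2. Around the spot in row 433, 8 of 41 near spots were past 1.5-fold toward females and 4 past it toward males. Together that was 29.3%, against 6.37% of all spots. The 15 of these near spots within 4-fold of its male intensity differed by -0.46 to 0.35 log2, with a median of -0.0051. Around the spot in row 256 the counts were 2 and 1 of 47, or 6.38%.

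Aqp1 encodes aquaporin 1, the water channel of the apical membrane of choroid plexus cells, and was the only one of the 7 genes printed on 10 spots. Male intensities ran from 79.97 to 112 with a median of 98.2, and female intensities from 75.03 to 97.2 with a median of 91.5. As levels, the male spots ran from -5.56 to -5.07 with a median of -5.26 and the female spots from -5.29 to -4.92 with a median of -5.01. The ranges overlapped, but the same spot was higher in the female pool for 10 of 10 spots once arrays were scaled.

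The Aqp1 difference was 0.20 ± 0.11 log2 (SD, 10 spots of 1 array pair), or 1.15-fold, and ran from 0.040 to 0.41 over spots. It was 0.17 ± 0.094 over the 7 spots outside the bands and 0.28 ± 0.13 over the 3 inside. Spots within 10 rows and columns had a median difference of 0.15 log2 around the Aqp1 spot in row 133 and 0.11 around that in row 416. Around the other Aqp1 spots this median ran from -0.024 to 0.0042. Minus these neighbours the Aqp1 difference was 0.18 log2. The Aqp1 spots share 1 labelled RNA per pool, so their number narrows the technical error and adds no rats. Of 1998 genes of like level 32.3% were at least as far apart as Aqp1, so a gap of this size was common at this dim level. Those genes were not matched for number of spots. The technical SD was 0.048 for Aqp1 over its 10 spots and 0.152 for 1 spot of like level. With spike-in scaling the difference was 0.13 log2.

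Kl encodes klotho, a membrane and secreted protein that makes fibroblast growth factor receptors respond to FGF23, and choroid plexus is one of its main sites in the brain. Its 1 spot, in row 155 inside the first band, gave intensities of 29.3 for males and 25.4 for females. The lowest intensities called well above background were 15.0 and 13.9, so Kl was read close to the limit of detection. Its levels were -7.01 and -6.86, a difference of 0.15 log2 with a technical SD of 0.28. The difference was smaller than the technical error, and 60.4% of 1442 genes of like level were at least as far apart.

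Clic6, a member of the chloride intracellular channel family enriched in choroid plexus, was likewise dim. Its 1 spot, in row 110 inside the first band, gave intensities of 64.1 and 47.1, or levels of -5.88 for males and -5.96 for females. The difference was -0.086 log2 with a technical SD of 0.22. It turned to 0.15 log2 when no background was subtracted, so Clic6 had no settled direction.

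Folr1 encodes folate receptor alpha, which moves folate across choroid plexus epithelium into cerebrospinal fluid. Its 1 spot, in row 503 outside the bands, gave intensities of 840 and 618, or levels of -2.17 and -2.25. The difference was -0.086 log2 (1.06-fold higher in the male pool) with a technical SD of 0.067. Of 2335 genes of like level 50.8% were at least as far apart. Over 14 alternative settings the difference of Folr1 ran from -0.62 log2, past 1.5-fold, with normexp background correction fitted on all spots to -0.012 with the same correction fitted without 4 spots of odd local background, and stayed below 0.

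Otx2 encodes the homeobox factor needed to form and keep choroid plexus. Its 1 spot, in row 394 outside the bands, gave intensities of 1243 and 1027, or levels of -1.60 and -1.52. The difference was 0.081 log2 (1.06-fold) with a technical SD of 0.066. Of 2293 genes of like level 49.5% were at least as far apart, and with spike-in scaling the difference was 0.014 log2. Folr1 and Otx2, both read on spots outside the bands, put the pools closer together than Ttr and Cdkn1c did. Cdkn1c differed by 0.51 log2 on its spot outside the bands. Kl and Clic6, inside them, differed by 0.15 and -0.086. The part of slide position in these differences was not tested.

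**Figure D2:**
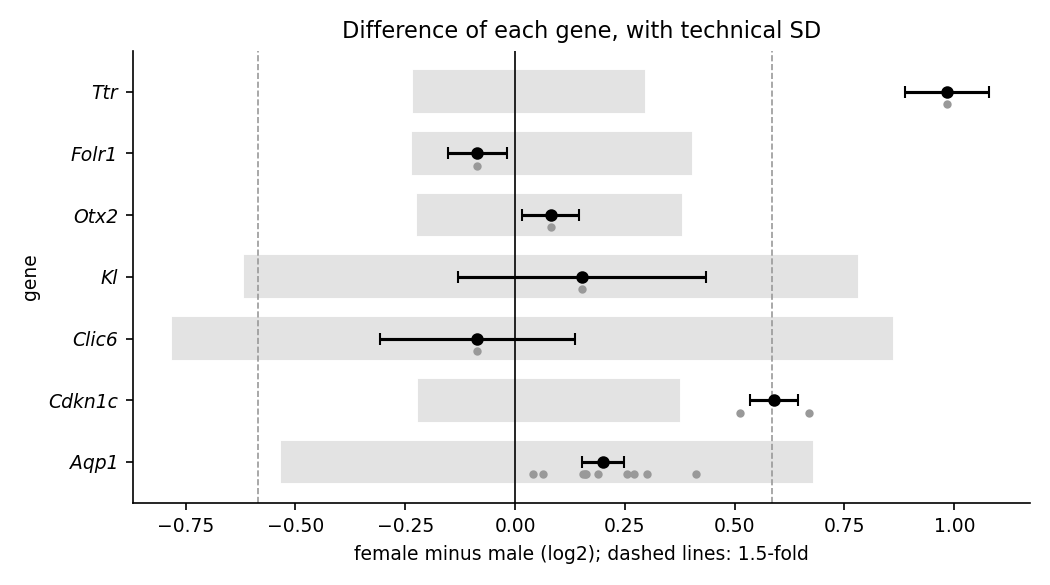
Female minus male difference (log2) of the 7 genes, as black points with the technical SD of the mean over spots. Small grey points are single spots and grey boxes the central 95% of all genes of like level. Ttr at 0.98 and Cdkn1c at 0.59 lie outside their boxes and the other 5 genes lie inside theirs.

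Among the 7 genes, 5 had a higher female level and 2 a lower one, and 2 of the 7, Ttr and Cdkn1c, were at least 1.5-fold apart. Of the 20600 genes measured in both pools 2.4% were at least 1.5-fold apart in either direction with 1.56% toward females and 0.845% toward males. By any amount, 50% of all genes had a higher female level. The median of the 7 differences was 0.15 log2, that of Kl, and the median over all genes was 0.00015. At 1.5-fold the nearest values are Cdkn1c, just past the line at 0.59, and Aqp1, well short of it at 0.20. Outside the bands only 4 of the 7 genes had a spot, and 0 of these 4 reached 1.5-fold there, with Cdkn1c at 0.51 log2.

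**Figure D3:**
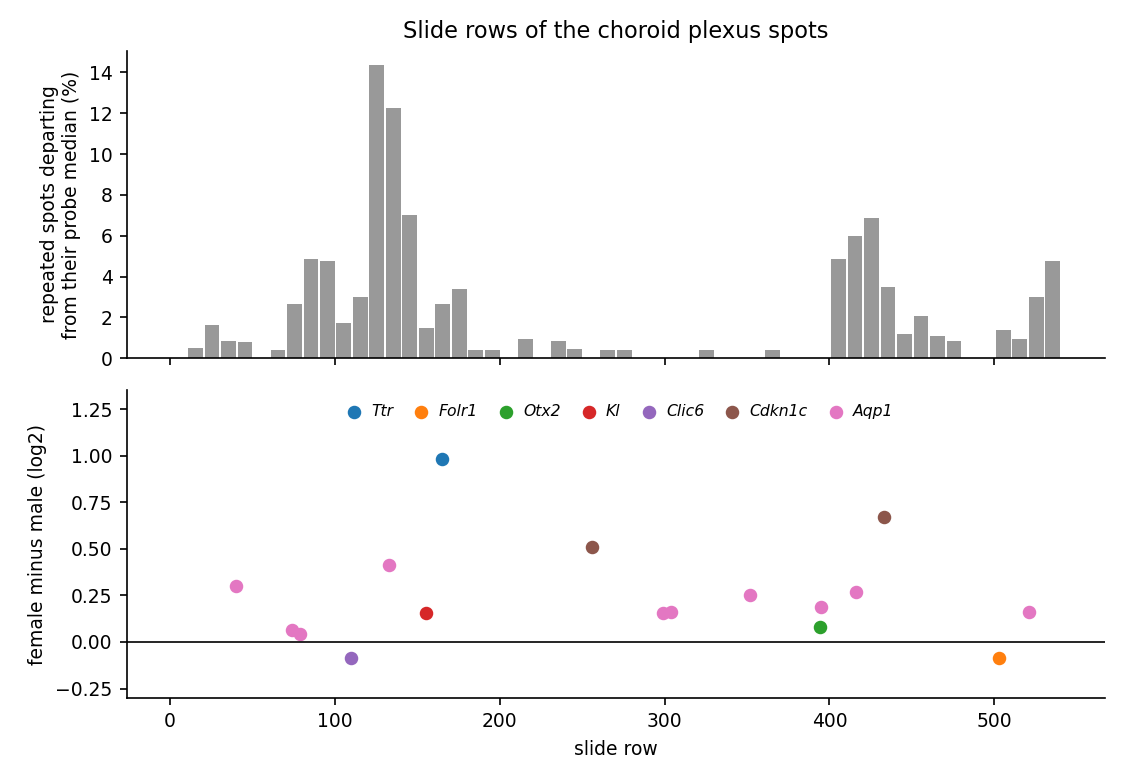
Top, share of repeated spots (%) that departed from their probe median in each stretch of 10 slide rows. Bottom, female minus male difference (log2) of the 17 spots by slide row. The share was 3.51% in the stretch of the Cdkn1c spot in row 433, 2.64% in that of Ttr, 1.72% in that of Clic6, 1.5% in that of Kl and 1.39% in that of Folr1, and 0 in those of Otx2 and the other Cdkn1c spot. For Aqp1 it was 12.2% in the stretch of the spot in row 133, 6.01% for row 416 and 3.0% for row 521. It was at most 2.64% for the other Aqp1 spots.

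A wider list of 39 choroid plexus genes, none of them among the 7, was measured for 35. Females had the higher level for 20 of these and males for 15. The median was 0.029 log2, and 3 genes passed 1.5-fold, all toward females. The 3 were Kcnj13, a potassium channel of the apical membrane, Igf2, a growth factor that the plexus and the meninges secrete, and Igfbp2, which binds insulin-like growth factors. Kcnj13 stood at -6.94 for males and -4.72 for females, a 4.67-fold gap. Its intensities were 30.6 and 111.8, so the male value that the fold rests on was close to the limit of detection. Igf2 stood at 1.13 and 2.16, a 2.04-fold gap. Both were read on 1 spot inside the bands. Igfbp2 was 1.52-fold higher, from probes of 0.52 and 0.69 log2.

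The next largest were smaller. The transporter genes Abcc1 and Slc22a8 exceeded the male level in females by 1.30-fold and 1.28-fold, the ferroxidase gene Cp 1.28-fold and the tight junction gene Cldn1 1.26-fold. The prolactin receptor gene Prlr was 1.21-fold higher and Col8a1 1.22-fold. Slco1a5, an organic anion transporter gene, was 1.23-fold higher in the male pool, the potassium channel subunit gene Kcne2 1.17-fold and Mfrp 1.17-fold. Slc13a4 and Tmem72 were well above background in 1 pool only, and Car12 and Cldn2, the claudin gene typical of the plexus, in neither.

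For genes of the wider list read on 8 or more spots, repeats narrow the technical error, but dim ones among them stay close to background. There were 7, of which 6 had the higher level in females, with a median of 0.064 log2 and a range from -0.16 to 0.33. Cldn1 differed by 0.33 ± 0.18 log2 (SD, 10 spots) and Prlr by 0.28 ± 0.14 (9 spots). Cldn1 was as dim as Kl, at levels of -7.00 for males and -6.67 for females. Sostdc1, a secreted inhibitor of BMP and Wnt signals, differed by 0.17 ± 0.21 (10 spots), the keratin gene Krt8 by 0.053 ± 0.099 (10 spots) and the homeobox gene Msx1 by -0.16 ± 0.086 (10 spots). None of these 7 reached 1.5-fold. Among the 25 genes with a spot outside the bands, 15 were higher and 1, Igfbp2, reached 1.5-fold. These are means over all spots of a gene, and Igfbp2 also had a spot inside the bands.

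**Figure D4:**
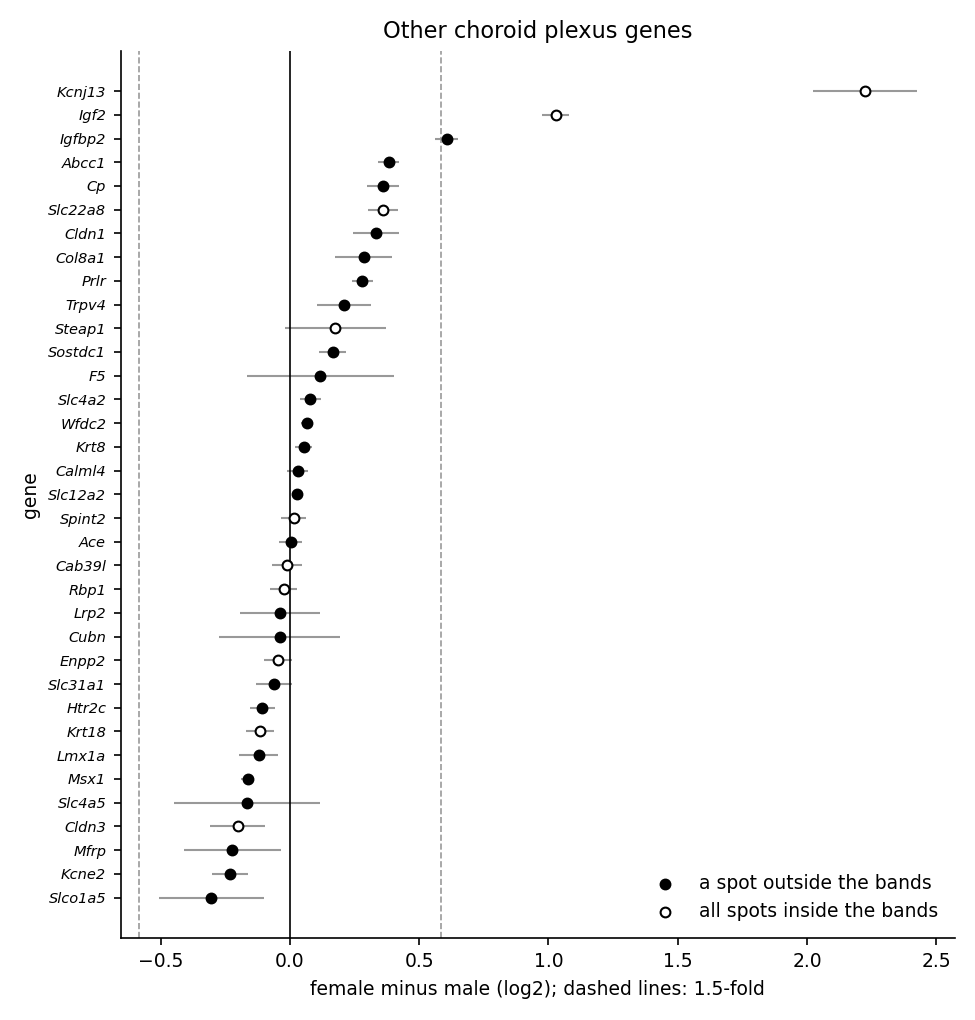
Female minus male difference (log2) of the 35 measured genes of the wider list, with the technical SD of the mean over spots. Points are filled where a spot lay outside the bands and open where all lay inside. Most genes lie close to 0, with 20 above and 15 below it, and Kcnj13, Igf2 and Igfbp2 lie past 1.5-fold.

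The partners and relatives of the 7 genes were compared in lists of their own. Around transthyretin, Rbp4, which encodes the retinol-binding protein that transthyretin carries, was 1.56-fold higher in the female pool, at 1.03 and 1.67. The retinol-binding protein receptor gene Stra6 differed by -0.24 log2, the thyroid hormone transporter gene Slco1c1 by -0.16, and the deiodinase gene Dio2 by 0.22. Of 9 measured genes of this list 4 were higher and 5 lower, with a median of -0.024. Around folate, 8 of 9 measured genes had the lower level in females but 0 reached 1.5-fold, with a median of -0.076. Slc46a1, the proton-coupled folate transporter gene, differed by -0.22, and the folate enzyme genes Shmt1 and Mthfd1 by -0.11 and -0.092.

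Around klotho, 8 of 9 measured genes had the higher level in females and 0 reached 1.5-fold, with a median of 0.11 log2. The hormone gene Fgf23 and the receptor gene Fgfr4 had the largest differences, 0.28 and 0.35, each from 1 dim spot. Adam10, a protease gene, differed by 0.17 and the phosphate transporter gene Slc34a1 by 0.13. The receptor gene Fgfr1, read brightly, differed by 0.068. Of the 8 other aquaporins measured, 6 had the higher level in females, 0 reached 1.5-fold, and the median was 0.051, and Aqp4, the astrocyte water channel gene, differed by 0.099 with probes from -0.22 to 0.38. The largest differences were those of Aqp8 at 0.29, Aqp5 at -0.27, Aqp6 at 0.17 and Aqp2 at 0.16, each from 1 spot.

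Among the 5 other chloride intracellular channel genes 4 were higher, with a median of 0.040 log2. Clic3 differed by -0.16, Clic1 by 0.097, Clic5 by 0.063 and Clic4 by 0.040. Otx1 and the other 5 homeobox genes listed had a median of 0.094, with Six3 at 0.27, Gbx2 at 0.14, Otx1 at 0.13 and Lhx5 at 0.062. The 6 other cyclin-dependent kinase inhibitor genes had a median of 0.035, none reached 1.5-fold, and the closest relatives of Cdkn1c, Cdkn1a and Cdkn1b, differed by 0.18 and 0.075. Cdkn2c differed by 0.17 and Cdkn2a by -0.13. Cdkn1c thus lay further apart than any of these 6, a description of 2 arrays without a test.

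Since Cdkn1c is imprinted, other imprinted genes were set beside it. Of 13 measured, 11 had the higher level in females, 3 of them past 1.5-fold, against 1.56% of all genes. The median was 0.14 log2. The 3 were Igf2, the noncoding RNA gene H19 at 0.98 log2 and Phlda2 at 0.70, all from single spots and the last 2 dim. Without Igf2, 10 of 12 were higher in females and 2 passed 1.5-fold, with a median of 0.13. Mest differed by 0.49. Kcnq1 differed by -0.055, Slc22a18 by 0.17, from 1 spot inside the bands, and Ndn, on 10 spots, by 0.022.

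Markers of meningeal cells differed in the same direction as Ttr and Cdkn1c. Of 16 measured meningeal fibroblast markers, 16 had the higher level in females and 13 passed 1.5-fold. Of all genes, 1.56% passed it toward females. This list, like the other lists, was chosen with earlier results of these data known, so its counts are description only. The median was 0.97 log2 and the range ran from 0.42 to 1.92. Their summed level, in multiples of the 75th percentile of the array, was 6.15 for males and 11.7 for females. Bright probes decide such a sum. Igf2 alone made up 2.28 of the gap of 5.58, and without it the sums were 3.95 and 7.25. Over the 7 choroid plexus genes the gap was 1.22, of which Ttr made up 1.05. Over the wider list it was 2.95, of which Igf2 made up 2.28. None of the 16 was below background. The largest differences were those of Aldh1a2 at 1.92, Slc47a1 at 1.39 and Slc22a6 at 1.34, all inside the bands, and Ogn at 1.30, outside them. The collagen genes Col1a2 and Col3a1, also outside the bands, were 2.05-fold and 2.01-fold higher. Igf2 belongs to this list as well as to the wider list and the list of imprinted genes. The part of meningeal tissue in the differences of Ttr and Cdkn1c was not tested.

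Blood cell markers differed the other way, with 8 of 8 measured genes lower in females, 1 past 1.5-fold, and a median of -0.43 log2. Their summed level was 55.1 for males and 45.7 for females, and Hemgn was not well above background. S100a8 differed by -1.27, Ahsp by -0.57, Alas2 by -0.49 and S100a9 by -0.46. Genes listed as pituitary markers had a median of -0.28, that of Pomc, with 5 of 7 lower and Tshb 4.15-fold higher in males. The hormone gene Prl was well above background in 1 pool only, and Gh1 in neither. Their summed levels were 11.3 for males and 8.72 for females, and without Pomc 3.32 and 2.17. Whether the Pomc signal came from pituitary or hypothalamic cells was not tested. Cga differed by -0.72, Pou1f1 by -0.46 and Pomc by -0.28. Markers of ependyma and tanycytes, cells that line the same ventricles, had a median of 0.058, with 10 of 12 higher, none at 1.5-fold and summed levels of 7.60 and 8.05. Col25a1 differed by 0.54, Rax by -0.31, Vim by 0.24 and Rarres2 by 0.22 there. Medians were -0.018 for 12 endothelial and mural markers, 0.062 for 6 neuronal markers and -0.069 for 7 astrocyte markers, and 0 of these reached 1.5-fold. The most distant were Slco1a4 at -0.14, Tubb3 at 0.085 and Gfap at -0.24 in the respective lists.

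**Figure D5:**
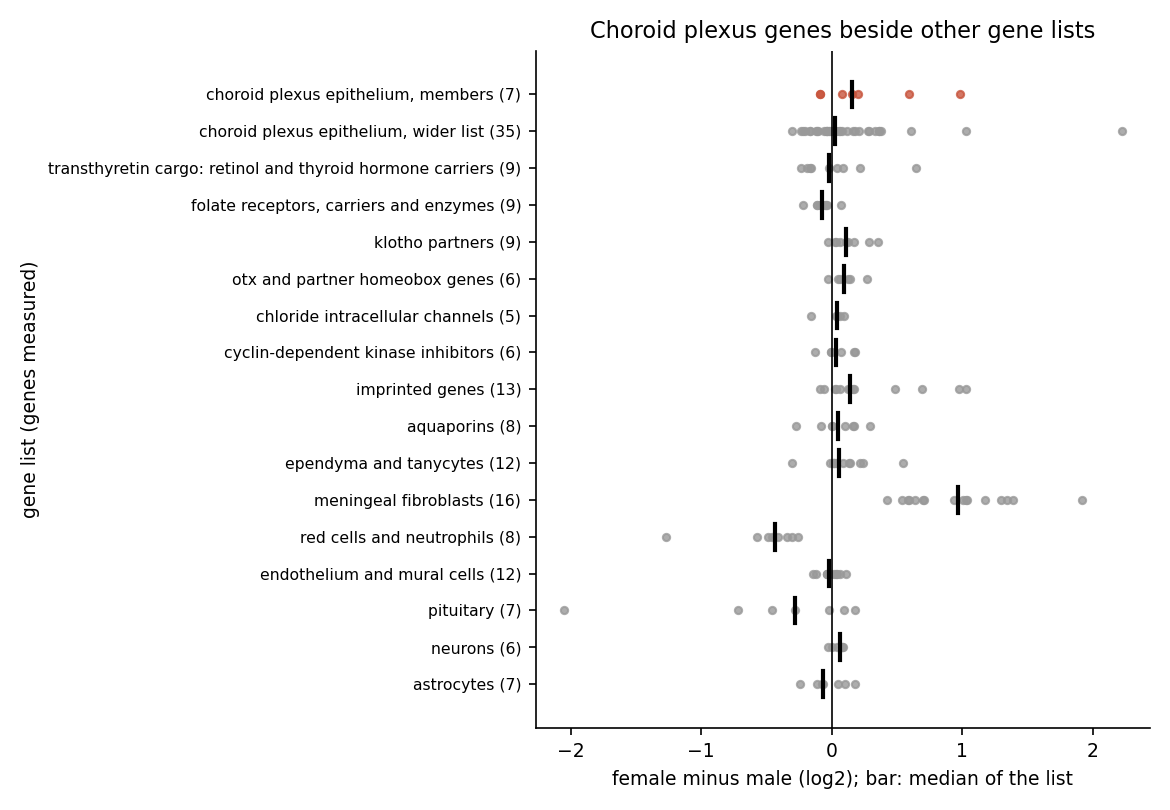
Female minus male difference (log2) of every measured gene in the 7 choroid plexus genes and 16 other lists, with a black bar at each median and the number of genes measured in brackets. The meningeal list has the highest median at 0.97, the list of red cells and neutrophils the lowest at -0.43, and the other medians lie between -0.28 and 0.15.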

How the data were processed

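Per the labels, RNA of 5 rats was pooled per sex and hybridised to 1 Agilent array each. The deposited scanner files hold intensities per spot, which per the file headers were background-subtracted and spatially detrended by Feature Extraction 10.7.3.1, while the submitters' processing notes name 9.1. The deposited value table holds a signal that, set against the scanner files, equals the processed intensity over the array's own 75th percentile, times 100, on a linear scale with no gene centring. Its medians were 29.0 and 29.5, and its 36348 rows hold all 17 spots.

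Levels were log2 intensities minus the log2 75th percentile over non-control spots. Outlier spots of either scan, 286 for males and 292 for females, were removed. Spots were averaged per probe. A probe counted as measured if more than 50% of its spots exceeded background clearly in each pool. Probes were averaged per gene, named by RefSeq accession in a GRCr8 gene table for 19719 probes, by symbol or synonym for 1874 and by the file's name for 8774. The technical SD came from the 300 repeated spots nearest in level and was reduced according to the number of spots averaged for a gene. Calls were made at 1.5-fold, with no test, since each group held 1 array. The number of arrays limits the precision.

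The genes and lists, and the 3 bands of slide rows, were chosen with earlier results of these data known. All 7 genes are named, and by rule the 4 largest differences of each other list, or 12 in the wider choroid plexus list. Of the endothelial, neuronal and astrocyte lists fewer are printed, and 2 genes are not reported here. Other genes named beyond the rule were chosen after their values were seen. The calculation was tested on simulated data. Python 3.11.15, pandas 2.3.3, statsmodels 0.14.6 and limma 3.58.1 were used.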

Additional observations from a re-analysis of the deposited data

How the results depend on the processing

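No paired analysis was possible because each sex was 1 pool on 1 array. Of 14 alternative settings, 13 were planned and 1 was chosen after seeing the data. The count of genes at least 1.5-fold apart was 2 and became 1 with scaling on the array median, quantile normalization, spike-in scaling, loess, no background subtraction, the brightest probe per gene and the added normexp setting. It became 0 without spots inside the bands, where Ttr had no value. Normexp fitted on all spots gave a count of 5 and a median of -0.62 log2, against 0.15. There 4 spots with a local background over 3 times the median of the array, on either array, took part in the fit. The fitted background of the male array was -595 with these spots and -1.19 without them. That setting put the median of all genes at -0.55, and Kl, Aqp1 and Otx2 below 0 at -2.37, -1.81 and -0.20. Spike-in scaling moved the median of all genes to -0.067 and the share of genes higher in the female pool from 50% to 32.0%. It was 62.1% with no background subtraction and 63.7% with the added normexp setting. Clic6 was above 0 in these last 2 settings. Kl and Clic6 were limited by dim signal. The split of all genes past 1.5-fold, 321 toward females and 174 toward males, became 252 and 229 with spike-in scaling and 186 and 48 with no background subtraction. It became 174 and 37 with the added normexp setting, 48 and 10058 with normexp on all spots, 150 and 42 without the bands, and 1196 and 872 with no filter on dim probes. Leaving out a replicate was not possible with 1 array per sex.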
